A study of Homo sapiens with 4 samples.

Results

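The 39 genes described here encode nucleolar factors of ribosome biogenesis: subunits of RNA polymerase I, core proteins of the small nucleolar ribonucleoproteins (snoRNPs) that guide chemical modification of ribosomal RNA (rRNA), processing and assembly factors of the small and the large ribosomal subunit, and abundant nucleolar proteins with several tasks. They were listed as classical targets of the transcription factor MYC, and the list was chosen with earlier results of these data known. All 39 were matched by symbol to 1 Ensembl identifier each among the 64252 identifiers of the count table, and all 39 passed the filter on low counts. RNA was sequenced from J.gamma1 cells, a line derived from the Jurkat human T-cell acute lymphoblastic leukemia line that lacks phospholipase C gamma 1, with 2 libraries of cells carrying a control hairpin (shNC) and 2 of cells carrying a hairpin against the fatty acid elongase gene ELOVL5 (shELOVL5). Per the file headers, all 4 libraries also share the tag D4, whose meaning the labels do not give. The labels name a single hairpin per group, so lower ELOVL5 and any other effect of that hairpin cannot be told apart. They also do not say that replicates were separate cultures, and p-values then measure only the spread between these libraries, which may be technical.

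Ribosomes are built in the nucleolus. RNA polymerase I transcribes a long precursor rRNA, box C/D snoRNPs methylate its riboses and box H/ACA snoRNPs convert selected uridines to pseudouridine, while large assemblies of processing factors cut the precursor and load ribosomal proteins onto it. Growing lymphoid leukemia cells make ribosomes at a high rate, and MYC is a known activator of genes at nearly every step, often through the E-box sequence CACGTG near the start site of the gene.

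That E-box was looked for in the RefSeq promoter windows (GRCh38.p14) from 250 bases before to 50 bases after each start site. Of the 33 genes with such a window, 15 (45.5%) held CACGTG, which reads the same on both strands, against 12.6% of 11151 tested genes matched by symbol. Counted by window, since a gene can have several, it was in 15 of 41 (36.6%), against 7.26% of all 35116. Windows for BOP1, DDX18, NOLC1, NOP58, RRP12 and RRS1 were not used here. The motif was in 7 of 14 genes that passed the test between the groups and in 8 of 19 that did not. The list was not made by sequence, but its genes were listed as MYC targets, and MYC often acts through this E-box. The higher share than among tested genes is therefore not independent of how the list was chosen. Whether the motif goes with passing was not tested. For the 7 genes that passed, each site is printed on the strand of its gene, with the E-box in capitals and 12 bases on either side.
GNL3, chr3:52686026-52686055, plus strand: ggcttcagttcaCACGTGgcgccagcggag
NOP14, chr4:2963374-2963403, minus strand: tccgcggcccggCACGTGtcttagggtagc
LYAR, chr4:4290068-4290097, minus strand: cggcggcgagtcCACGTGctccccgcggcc
GAR1, chr4:109815781-109815810, plus strand: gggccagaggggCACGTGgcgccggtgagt
NAT10, chr11:34105602-34105631, plus strand: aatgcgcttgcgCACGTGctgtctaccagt
UTP4, chr16:69132621-69132650, plus strand: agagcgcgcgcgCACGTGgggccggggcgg
FBL, chr19:39846356-39846385, minus strand: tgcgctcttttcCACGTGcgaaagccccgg
The E-box began 64 bases before the start site in LYAR, 16 in UTP4 and 15 in NAT10. It began 6 bases after the start site in GNL3 and FBL, 15 in NOP14 and 31 in GAR1. A match describes these letters only, and binding of MYC was not measured.

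Total counts per library lay between 16254002 and 17338719. ELOVL5 fell from 348 ± 7.47 to 70.9 ± 1.27 CPM (counts per 1000000 counts, with library sizes scaled by the trimmed mean of M values; SD, n = 2; adjusted p = 1.79e-09), so the targeted transcript followed the labels. The 13 T lymphoid markers summed to 1929 and 1938 CPM in shNC and 1948 and 2012 CPM in shELOVL5, but 5 of them fell (CD3D, CD247, CD1A, LCK and ZAP70) and 3 rose (CD3E, CD3G and LAT). Of the B cell markers, CD79A fell from 40.4 ± 4.46 to 25.7 ± 1.27 CPM (SD, n = 2; adjusted p = 0.00267), while MS4A1 was at 0 in 2 libraries and PAX5 in 3, and the part of such cells in the results was not tested. The 5 myeloid, 4 erythroid and 5 epithelial and fibroblast markers summed to at most 1.68, 0.589 and 8.90 CPM in any library. In RNA from whole cultures, fewer cells of a type and less RNA per cell cannot be told apart, and CPM gives each transcript relative to all others.

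In the comparison of shELOVL5 with shNC, which asked how lower ELOVL5 changes the transcriptome of these cells, 13 of the 39 genes fell and 1, GAR1, rose at a Benjamini-Hochberg adjusted p under 0.05 over 17461 tested genes. The shares were 33.3% lower and 2.56% higher, against 11.2% lower and 9.22% higher of all tested genes (20.4% in either direction). Abundant genes pass more easily: of the 7407 tested genes that averaged 30.8 CPM or more, the level of the lowest of the 39, 19.8% fell and 15.4% rose. The changes were small, with log2 fold changes of -0.49 to 0.41 and a median of -0.12, beside 0.01 over all tested genes and -0.01 over those 7407. Scaled by total counts only, 8 of the 39 fell and 3 rose (GAR1, DDX18 and NCL), against 9.59% lower and 11.1% higher of all genes. Higher genes then made up 27.3% of the calls among the 39, in place of 7.14%. With no low-count filter, NOP56, NIP7, NPM1, LYAR and PA2G4 still fell, and the other 9 did not pass. The 39 genes together took up 0.529% of the reads counted in each shNC library, and 0.512% and 0.508% of those in shELOVL5. With any 1 library left out, fewer of the 39 genes fell, and fewer of all tested genes did too.

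**Figure D1:**
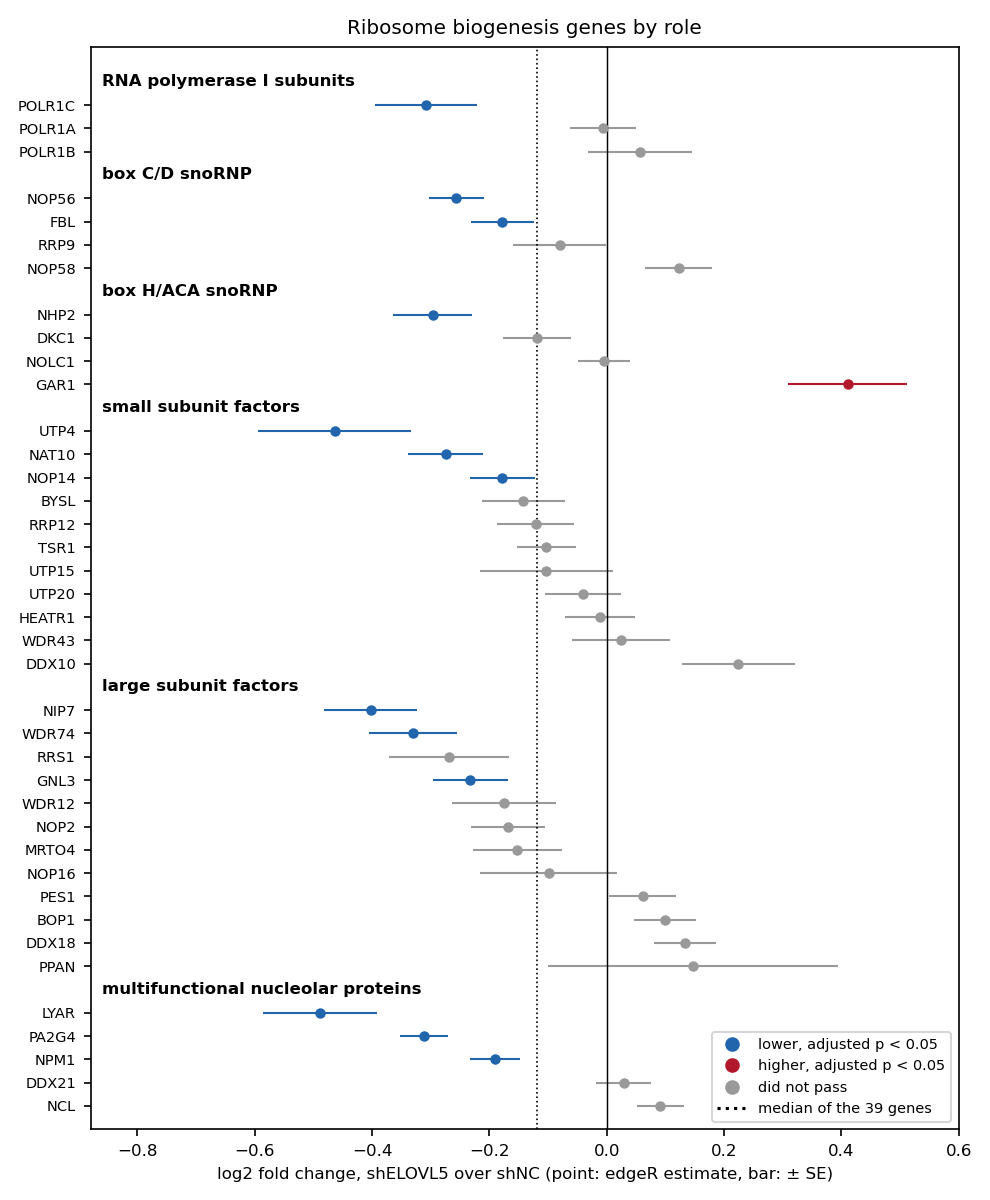
Log2 fold change of each of the 39 genes, shELOVL5 over shNC (horizontal axis; point, edgeR estimate; bar, ± SE), grouped by role on the vertical axis, with the genes that passed in colour. Genes that fell stand in every role group, GAR1 is the only gene past the threshold on the right, and the dotted line marks the median of -0.12.

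The 3 listed subunits of RNA polymerase I did not move as a unit. POLR1C (ENSG00000171453, GRCh38 chromosome 6, 43509702 to 43562419), a subunit that RNA polymerase III also uses, had 60.2 and 57.1 CPM in shNC and 45.6 and 49.3 CPM in shELOVL5. It fell by 0.31 on the log2 scale (SE 0.0869, adjusted p = 0.0301), and both shELOVL5 libraries lay below both shNC libraries. POLR1A, the largest catalytic subunit, averaged 120 ± 1.17 CPM in shNC (SD, n = 2), against 119 ± 4.38 CPM in shELOVL5, and its libraries overlapped. POLR1B, the other large catalytic subunit, had a log2 fold change of 0.06 (adjusted p = 0.719). The call of POLR1C was lost without shNC replicate 1 (log2 fold change -0.27), shELOVL5 replicate 1 (-0.26) or shELOVL5 replicate 2 (-0.37). It was also lost by DESeq2 (adjusted p = 0.0600) and by total counts only (0.0508).

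Among box C/D snoRNP proteins, the scaffold gene NOP56 and the methyltransferase gene FBL fell, while NOP58, the paralogue of NOP56 in the same particle, lay higher without passing. NOP56 (ENSG00000101361, chromosome 20, 2652145 to 2658393) had 230 and 239 CPM in shNC and 200 and 193 CPM in shELOVL5, with no overlap between the groups. Its log2 fold change was -0.26 (SE 0.0465, adjusted p = 0.00326), and it passed in all 11 alternative settings tried. FBL (ENSG00000105202, chromosome 19, 39834458 to 39846414) had 204 and 200 CPM in shNC and 187 and 171 CPM in shELOVL5. The lower shELOVL5 library of FBL was replicate 2, and the log2 fold change of -0.18 (adjusted p = 0.0407) became -0.11 without it (adjusted p = 0.294). FBL also missed the threshold without shNC replicate 1 (0.106) or replicate 2 (0.0626), by DESeq2 (0.0636) or by total counts only (0.0860). NOP58 averaged 113 ± 3.86 CPM in shNC (SD, n = 2), against 123 ± 3.12 CPM in shELOVL5 (log2 fold change 0.12, adjusted p = 0.170). Counted within each library, which needs no scaling, NOP58 had 0.501 and 0.461 counts per NOP56 count in shNC and 0.625 and 0.626 in shELOVL5. RRP9, the protein specific to the snoRNP that directs early cleavage of the precursor, averaged 58.6 ± 1.20 and 55.4 ± 0.841 CPM (SD, n = 2; log2 fold change -0.08, adjusted p = 0.543).

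Of 4 genes of box H/ACA particles, NHP2 fell, GAR1 rose, and DKC1 and NOLC1 did not pass. NHP2 (ENSG00000145912, chromosome 5, 178149460 to 178153967), which binds the guide RNA, had 121 and 124 CPM in shNC and 94.1 and 106 CPM in shELOVL5. Both shELOVL5 libraries were lower, and NHP2 fell by 0.30 on the log2 scale (SE 0.0672, adjusted p = 0.0108). GAR1 (ENSG00000109534, chromosome 4, 109815510 to 109824740), which binds the pseudouridine synthase of the particle, had 37.4 and 32.4 CPM in shNC and 46.6 and 46.2 CPM in shELOVL5. It rose by 0.41 (SE 0.102, adjusted p = 0.0169), with close shELOVL5 values and a wider gap between the shNC libraries. The synthase gene itself, DKC1, stood at 141 ± 8.27 and 129 ± 2.80 CPM (SD, n = 2; log2 fold change -0.12, adjusted p = 0.192). NOLC1, a snoRNP chaperone, had 247 ± 2.47 and 246 ± 7.39 CPM, and its libraries overlapped. The count of GAR1 per NHP2 count was 0.308 and 0.261 in shNC and 0.495 and 0.436 in shELOVL5. The call of GAR1 was lost without shNC replicate 2 (adjusted p = 0.0988), without shELOVL5 replicate 1 (0.107) or replicate 2 (0.0819), and NHP2 did not pass without shELOVL5 replicate 1 (0.1004).

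Ratios within a library were computed for 3 pairs, NOP58 to NOP56, GAR1 to NHP2, and NPM1 to NCL. The pairs were chosen after their values were seen, so the ratios are a description with no test. The mean log2 ratio differed between shELOVL5 and shNC by 0.38, 0.71 and -0.28.

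Of 11 small subunit factors 3 fell and the other 8 did not pass. UTP4 (ENSG00000141076, chromosome 16, 69131291 to 69231130), part of the subcomplex that joins the precursor while it is transcribed, had 54.9 and 73.3 CPM in shNC and 47.1 and 45.8 CPM in shELOVL5. As a percent of their mean, the shNC libraries of UTP4 differed more from each other than those of the other genes that passed. Its log2 fold change of -0.46 (SE 0.131, adjusted p = 0.0402) was -0.66 without shNC replicate 1 and -0.25 without shNC replicate 2. NAT10 (ENSG00000135372, chromosome 11, 34105602 to 34147670), an acetyltransferase of rRNA cytidines, had 129 and 143 CPM in shNC and 111 and 114 CPM in shELOVL5 and fell by 0.27 (SE 0.0636, adjusted p = 0.0122). NOP14 (ENSG00000087269, chromosome 4, 2937933 to 2963385), a structural factor of the early particle and the most abundant of the 11 per kilobase of exon, had 188 and 173 CPM in shNC and 156 and 164 CPM in shELOVL5. For both genes the lower shNC library still lay above the higher shELOVL5 library. NOP14 fell by 0.18 (SE 0.0557, adjusted p = 0.0458), the passing gene nearest to the threshold.

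The partners of UTP4 in its subcomplex did not pass: UTP15 had a log2 fold change of -0.10, WDR43 of 0.02 and HEATR1 of -0.01, and the libraries of all 3 overlapped. The scaffold gene UTP20 (-0.04), the late-acting RRP12 (-0.12), BYSL (-0.14) and TSR1 (-0.10) were lower in both shELOVL5 libraries without passing. DDX10, a helicase gene with the lowest level per kilobase of all 39, had a log2 fold change of 0.22 (adjusted p = 0.134). The call of UTP4 was lost without shNC replicate 2 (adjusted p = 0.143), shELOVL5 replicate 1 (0.175) or replicate 2 (0.215), NAT10 without the same libraries (0.0672, 0.0907 and 0.0590), and NOP14 without shNC replicate 1 (0.218), shELOVL5 replicate 1 (0.241) or replicate 2 (0.0943). Total counts only ended the calls of UTP4 (0.0557) and NOP14 (0.101), limma-voom those of UTP4 (0.0635) and NOP14 (0.0502), and DESeq2 that of NOP14 (0.0760).

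Of 12 large subunit factors 3 fell and 9 did not pass. NIP7 (ENSG00000132603, chromosome 16, 69337996 to 69343111), which acts in precursor processing, had 82.1 and 78.0 CPM in shNC and 63.9 and 57.2 CPM in shELOVL5 and fell by 0.40 on the log2 scale (SE 0.0799, adjusted p = 0.00542). WDR74 (ENSG00000133316, chromosome 11, 62832342 to 62841809), a cofactor of nuclear particle remodelling, had 97.7 and 105 CPM in shNC and 85.3 and 75.7 CPM in shELOVL5 and fell by 0.33 (SE 0.0749, adjusted p = 0.0108). GNL3 (ENSG00000163938, chromosome 3, 52681156 to 52694492), which encodes the nucleolar GTPase nucleostemin, had 110 and 109 CPM in shNC and 97.3 and 88.8 CPM in shELOVL5. It fell by 0.23 (SE 0.0641, adjusted p = 0.0269). In each of these 3 genes shELOVL5 replicate 2 was the lowest library, and both shELOVL5 libraries lay below both shNC libraries. Without shELOVL5 replicate 2, NIP7 (adjusted p = 0.0606), WDR74 (0.113) and GNL3 (0.221) did not pass. WDR74 also missed the threshold without shNC replicate 2 (0.0516), and GNL3 without shNC replicate 1 (0.0664) or 2 (0.0596), by DESeq2 (0.0579) and by total counts only (0.0513).

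The 3 subunits of the PeBoW complex, which matures the large subunit precursor, did not pass. BOP1 (ENSG00000261236, chromosome 8, 144262102 to 144291370) had 179 and 190 CPM in shNC and 192 and 203 CPM in shELOVL5 (log2 fold change 0.10, adjusted p = 0.221), PES1 had a log2 fold change of 0.06 and WDR12 of -0.18. BOP1 was the most abundant of the large subunit factors per kilobase of exon. The methyltransferase gene NOP2 (-0.17, adjusted p = 0.0891) and RRS1 (-0.27, adjusted p = 0.0948), which helps load a ribosomal RNA-protein module, came nearest to passing. MRTO4 (-0.15) was lower in both shELOVL5 libraries, the libraries of NOP16 (-0.10) overlapped, and the helicase gene DDX18 (0.13, adjusted p = 0.103) was higher in both; by total counts only DDX18 rose (adjusted p = 0.0427).

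PPAN, another large subunit factor, had the widest spread of the 39. It had 63.8 and 77.7 CPM in shNC and 92.6 and 64.0 CPM in shELOVL5 (log2 fold change 0.15, SE 0.248, adjusted p = 0.761). The readthrough gene PPAN-P2RY11, which shares 56.0% of the exonic bases of PPAN, had 991 and 716 counts in shNC and 0 and 1023 counts in shELOVL5. P2RY11, the purinergic receptor gene downstream, had 309 and 275 counts in shNC and 941 and 311 in shELOVL5, so that the library with 0 counts of the readthrough gene had the most counts of both separate genes. PPAN and the readthrough gene summed to 122 and 122 CPM in shNC and 92.6 and 126 CPM in shELOVL5. With this sum, which was tried after seeing the data, the log2 fold change turned from 0.15 to -0.16 (adjusted p = 0.598). Without shELOVL5 replicate 1, it was -0.15 for PPAN alone (adjusted p = 0.533). How reads were divided among these 3 overlapping genes is not stated in the labels.

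**Figure D2:**
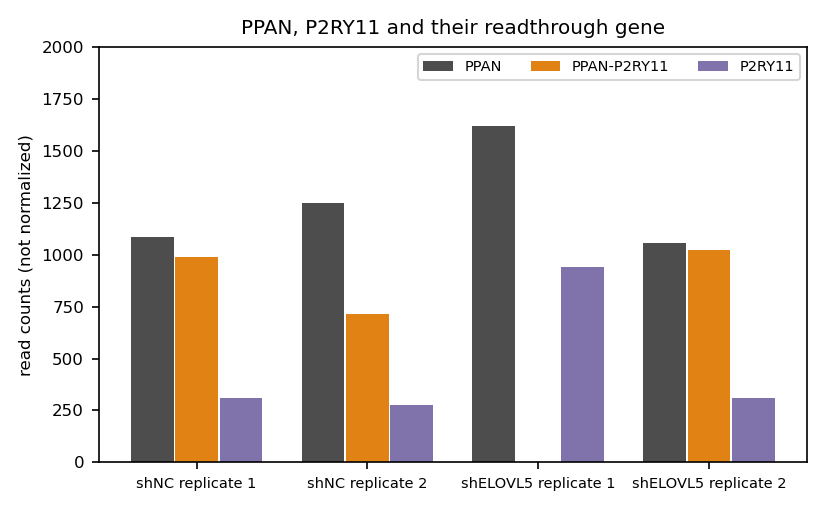
Read counts (vertical axis, not normalized) of PPAN, P2RY11 and the readthrough gene PPAN-P2RY11 in each of the 4 libraries (horizontal axis). In shELOVL5 replicate 1 the readthrough gene has 0 counts, and PPAN (1618) and P2RY11 (941) have their highest counts.

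The multifunctional nucleolar proteins held the smallest p of the list: PA2G4, LYAR and NPM1 fell, and NCL and DDX21 did not pass. PA2G4 (ENSG00000170515, chromosome 12, 56104319 to 56113907), a growth-associated RNA-binding protein, had 337 and 327 CPM in shNC and 266 and 269 CPM in shELOVL5. It fell by 0.31 (SE 0.0413, adjusted p = 0.000482), with little spread in either group, and passed in all 11 alternative settings. LYAR (ENSG00000145220, chromosome 4, 4267701 to 4290169), a zinc finger protein of early particles, had 65.3 and 64.6 CPM in shNC and 42.2 and 50.4 CPM in shELOVL5. Its fall of 0.49 on the log2 scale (SE 0.0975, adjusted p = 0.00556) was the largest of the 39, and both shELOVL5 libraries were lower. NPM1 (ENSG00000181163, chromosome 5, 171387116 to 171411137), the nucleolar chaperone and the most abundant of the 39 per kilobase of exon (111 CPM per kilobase in shNC), had 439 and 414 CPM in shNC and 377 and 370 CPM in shELOVL5. NPM1 fell by 0.19 (SE 0.0425, adjusted p = 0.00986), again with no overlap.

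NCL, the gene of nucleolin and next in level per kilobase (93.6 CPM per kilobase), had 669 and 627 CPM in shNC and 693 and 689 CPM in shELOVL5 (log2 fold change 0.09, adjusted p = 0.140). It rose by total counts only (adjusted p = 0.0424) and without shNC replicate 1 (0.0250). NPM1 counts per NCL count were 0.656 and 0.659 in shNC and 0.545 and 0.537 in shELOVL5. The libraries of DDX21, a helicase gene of rRNA transcription and processing, overlapped, at 240 ± 9.24 and 245 ± 4.27 CPM (SD, n = 2). LYAR did not pass without shELOVL5 replicate 1 (adjusted p = 0.0530), and NPM1 did not without shELOVL5 replicate 1 (0.0514) or replicate 2 (0.0844). Processed pseudogenes of NPM1 and PA2G4 held 1.41% and 1.73% as many counts as these genes.

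**Figure D3:**
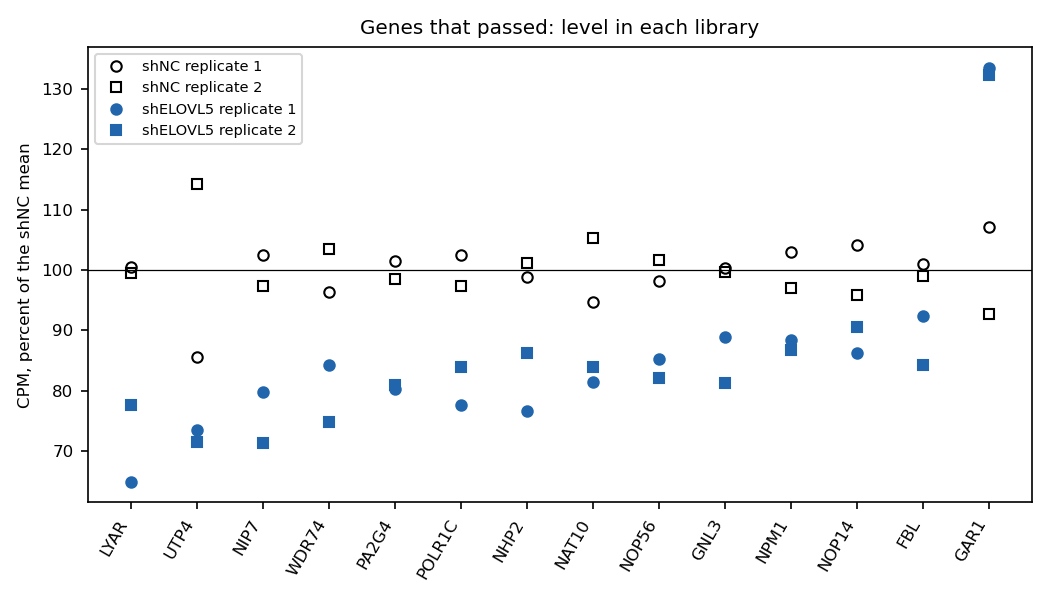
Level of each gene that passed in each of the 4 libraries, as percent of its shNC mean CPM (vertical axis), with the genes ordered by fold change on the horizontal axis. Filled shELOVL5 points lie below the open shNC points for 13 genes and above them for GAR1, and the shNC points of UTP4 lie farthest apart.

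Across all 39 genes, both shELOVL5 libraries lay below both shNC libraries for 23 and above them for 7, and the groups overlapped for 9. These are 59.0% lower and 17.9% higher, against 30.1% and 30.04% of all tested genes and 37.7% and 33.8% of the 7407 genes of at least 30.8 CPM. The unadjusted p was under 0.05 for 19 genes, of which 5 (NOP2, RRS1, DDX18, DDX10 and NCL) did not pass after adjustment. The sign of the change was the same in all 11 alternatives for the 14 genes that passed, but only NOP56 and PA2G4 passed in every setting.

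**Figure D4:**
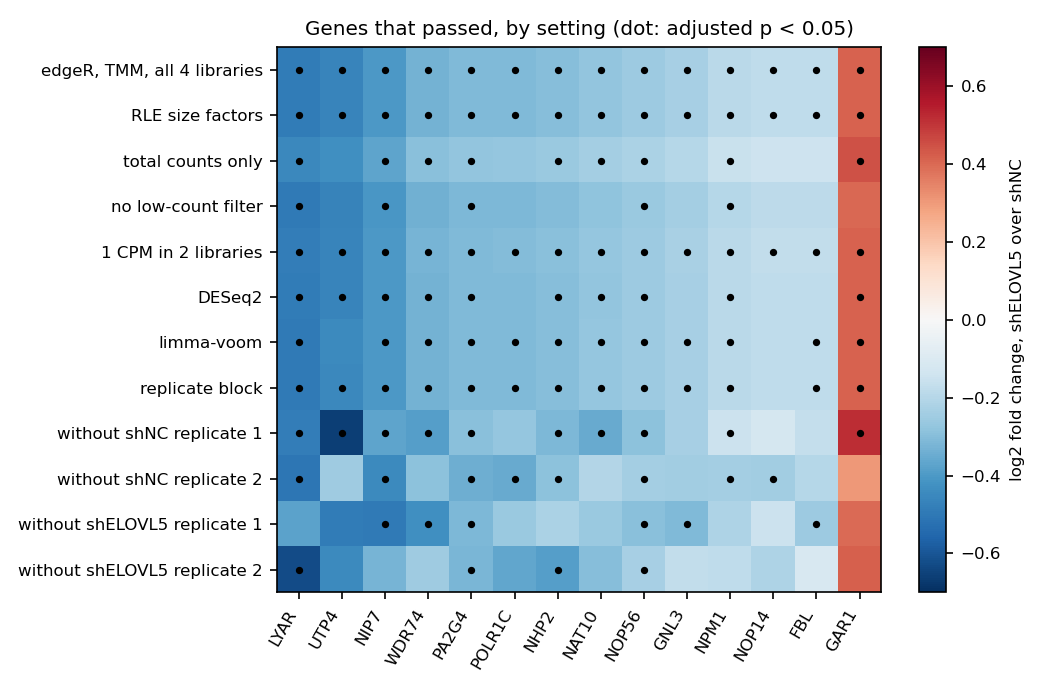
Log2 fold change (colour, shELOVL5 over shNC) of the 14 genes that passed (horizontal axis) in the setting of the text and its 11 alternatives (vertical axis), with a dot where the adjusted p is under 0.05. The colour of each gene keeps its direction, while dots are lost mostly where a library is left out, with no low-count filter and by total counts only.

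Some of the genes lie inside or across other transcripts. Small nucleolar RNA genes lie within NOP56 and GNL3, which fell, and within NOP58, DKC1, WDR43, TSR1, PPAN and NCL, which did not pass. Of the genes that passed, exons on the opposite strand overlapped 27.4% of the exonic bases of NHP2 (gene RMND5B), 20.2% of NIP7 (COG8) and 17.1% of NOP14 (NOP14-AS1). The log2 fold changes of these 3 neighbours were 0.04, 0.16 and -0.11, and none passed (adjusted p = 0.825, 0.0882 and 0.703). Overlaps of at most 6.27% were found for POLR1C (XPO5 and YIPF3), UTP4 (CHTF8) and GNL3 (GLT8D1), of which CHTF8 fell by 0.24 (adjusted p = 0.00406). Among genes that did not pass, HEATR1 was overlapped over 23.2% of its exonic bases by LGALS8 (-0.18, adjusted p = 0.145). TSR1 was overlapped over 20.7% by SRR, which rose (0.31, adjusted p = 0.0438), and over 0.180% by SGSM2, which fell (-0.19, adjusted p = 0.0394). HIGD2A (0.14, adjusted p = 0.358) overlapped 7.93% of NOP16, and ANKRA2, which rose (0.63, adjusted p = 0.0356), 3.86% of UTP15. WDR12 (CARF) and MRTO4 (EMC1) had overlaps of at most 0.496%, with genes that did not pass. Overlapping genes with few counts beside those of the gene itself were left out. The labels do not say whether counting used strand, and the part of shared reads in these values was not tested.

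The rest of the pathway was described with 153 further genes in 6 lists made by role, all of which were tested: 21 fell (13.7%) and 8 rose (5.23%), with a median log2 fold change of -0.06. The share that fell lies near the 11.2% of all tested genes, while the share that rose lies below their 9.22%. Both shares lie below the 19.8% and 15.4% of the 7407 genes of at least 30.8 CPM. Some of the 153 genes, such as POLR1H, average less than that level, so neither comparison matches their levels. The log2 fold change was below 0 for 64.7% of the 153 genes, against 49.2% of all tested genes. Of 48 other large subunit factors 10 fell and 4 rose. RSL24D1 (-0.60, adjusted p = 0.000189), MAK16 (-0.55), RSL1D1 (-0.38) and NOP53 (-0.28), factors of large subunit assembly, had the smallest p, and all 4 also passed without any 1 library. Of 49 genes listed as other small subunit factors 6 fell and 3 rose. The assignment of NOC2L to the small rather than the large subunit was not checked, and the counts of both lists depend on it. NOP9 (0.38, adjusted p = 0.00157), an RNA-binding processing factor, rose, while NOB1 (-0.31), the nuclease that makes the mature end of the small subunit rRNA, NOL11 (-0.29) and NOC2L (-0.19) fell. NOB1 did not pass without shELOVL5 replicate 2 (adjusted p = 0.0553), NOL11 without that library (0.145) or shNC replicate 2 (0.0874), and NOC2L without either shELOVL5 library (0.0653 and 0.131).

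Of 17 other genes of the RNA polymerase I machinery 3 fell and the rest did not pass. These were POLR2K (-0.50), a small subunit shared by RNA polymerases, POLR1E (-0.38) and the termination factor gene TTF1 (-0.34). Of 14 further genes of snoRNPs and their assembly, RUVBL1 (-0.45, adjusted p = 0.00422), an ATPase of snoRNP assembly, fell, and it passed without any 1 library. In the nuclear exosome, which trims rRNA ends, EXOSC2 (-0.38) fell and EXOSC6 (0.27) rose among 15 genes. The list of RNA polymerase III subunits leaves out those shared with RNA polymerase I, which are counted above. Of the shared subunits, POLR1C and POLR2K fell. POLR1D (-0.08), POLR2E (-0.005), POLR2F (-0.06), POLR2H (-0.11) and POLR2L (0.08) did not pass. None of 10 RNA polymerase III subunit genes passed by edgeR, DESeq2 or limma-voom, and 3 of them had an unadjusted p under 0.05 by edgeR; 1 rose by total counts only, 1 rose without shNC replicate 1, and 1 fell without shELOVL5 replicate 2. POLR2K did not pass without shELOVL5 replicate 1 (adjusted p = 0.0665), POLR1E without that library (0.0891), replicate 2 (0.120) or shNC replicate 1 (0.108), TTF1 without either shELOVL5 library (0.172 and 0.0722) or shNC replicate 2 (0.143), and EXOSC6 without those same libraries (0.114, 0.0527 and 0.0676). With either shELOVL5 library left out, fewer genes of the other large subunit, small subunit and RNA polymerase I lists fell. Fewer of all tested genes also fell in those fits.

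**Figure D5:**
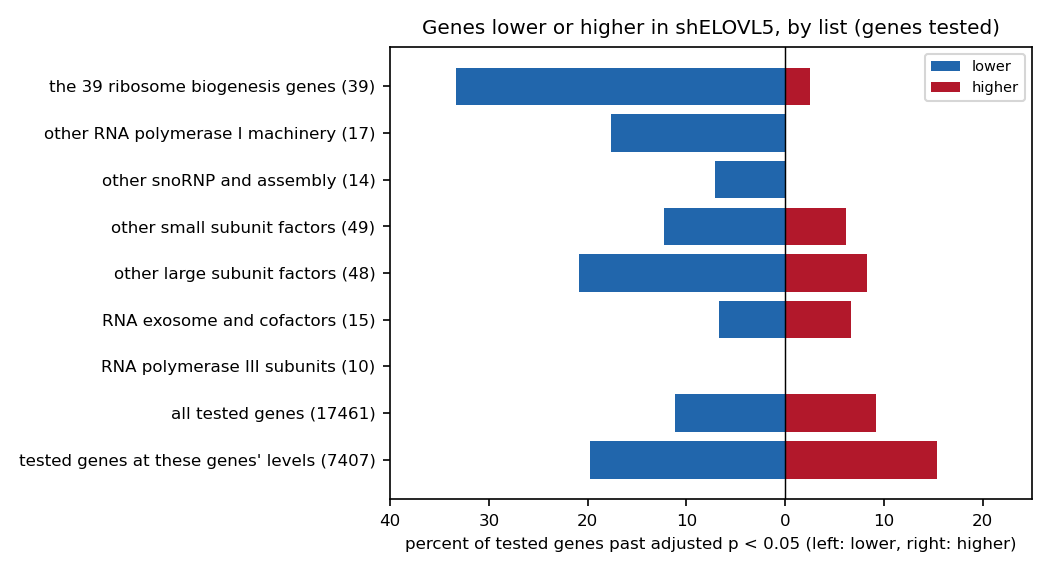
Percent of tested genes that fell (left, blue) or rose (right, red) at an adjusted p under 0.05 (horizontal axis) for the 39 genes, the 6 other lists of the pathway, all tested genes and the tested genes at or above the level of the lowest of the 39 (vertical axis, number of genes in brackets). The bar for the 39 genes reaches 33.3% on the left and 2.56% on the right, and all 153 other pathway genes together (not drawn) had 13.7% and 5.23%.

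MYC, the known regulator of many of these genes, had 171 and 183 CPM in shNC and 102 and 108 CPM in shELOVL5. It fell by 0.75 on the log2 scale (SE 0.0585, adjusted p = 1.34e-05), a larger change than that of any of the 39 genes. Whether the fall of MYC has a part in the changes of the 39 genes was not tested.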

How the data were processed

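RNA-seq libraries of J.gamma1 cells (2 shNC, 2 shELOVL5, by title) were analysed. The deposited table gives raw read counts per gene; HISAT2 2.2.0, StringTie and hg38 are named per the submitters' processing notes, without role or order. No source used here gives the counting step, annotation or strand use. Here, genes were filtered with filterByExpr (minimum count 10), scaled by TMM and tested with edgeR 4.0.16 (R 4.3.3; quasi-likelihood, robust=TRUE, two-sided, group only), with Benjamini-Hochberg adjustment over all tested genes and a threshold of 0.05. CPM are TMM-scaled. Positions and exon lengths (union of exons) came from GENCODE 29, on GRCh38 like the table. The script was tested on simulated data. Alternatives used RLE, total counts, other filters, DESeq2 1.42.0, limma-voom (limma 3.58.1), a replicate block and leaving out each library.

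The 39 genes and all lists were chosen with earlier results of these data known. Values per library were given for genes that passed and the most abundant gene per kilobase of each role; up to 4 genes with the smallest p were named per other list. Depth was 16254002 to 17338719 counts per library. The summed level of the B cell marker list is not reported here.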

Additional observations from a re-analysis of the deposited data

How the results depend on the processing

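The number of the 39 genes that fell (13) or rose (1) and the median log2 fold change (-0.12) were nearly unchanged with RLE factors, the 1 CPM filter and the PPAN sum (13, 1 and -0.12 in each). Scaling by total counts only gave 8 lower and 3 higher, a median of -0.083, and 13 higher among the 153 other pathway genes (8 in the text). It moved the median of all genes from 0.01 to 0.04. With no low-count filter, where more genes were tested, 5 fell and 0 rose by edgeR (GAR1 adjusted p = 0.0566), and 2 pathway genes rose. Over all genes 1344 then fell and 899 rose, against 1952 and 1610 in the text. DESeq2 gave 9 lower, 1 higher and 3 pathway genes higher, beside 1609 lower and 1190 higher over all genes. By limma-voom 11 of the 39 fell and 1 rose, beside 1942 and 1586 over all genes. Leaving out 1 library at a time, with the lone library assumed to vary like the other group, gave 4 to 9 lower and 0 to 2 higher of the 39, and a median of -0.15 to -0.10. In the same refits 11 to 17 pathway genes fell and 1 to 7 rose, and over all genes 1176 to 1616 fell and 696 to 1347 rose. The cause of these losses was not tested. Replicate numbers did not pair the libraries (correlation across genes of replicate differences -0.018). A replicate block gave 12 lower and 1 higher, with NOP14 lost (adjusted p = 0.0598), and over all genes 1902 lower and 1551 higher. Changes of about 0.1 on the log2 scale mostly did not pass at this depth and replication.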

Other observations

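UTP4 and NIP7, which both fell, lie 106.865 kb apart on chromosome 16. Of the 2 tested genes between them, 1 rose and none fell by edgeR. NOP58 and WDR12 on chromosome 2 lie 571 kb apart, and of the 4 tested genes between them 1 fell and 1 rose. RRP9 and GNL3 on chromosome 3 lie 739 kb apart, and of the 25 tested genes between them 5 fell and 2 rose. Over all tested genes, 11.2% fell and 9.22% rose, and these regions were not tested as such. The E-box CACGTG was in the promoter windows of 28.5% of 130 matched genes of the other pathway lists, between the 45.5% of the 33 matched genes described above and the 12.6% of tested genes.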
